A study of Mus musculus with 6 samples.

Results

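The genes for MHC class II antigen presentation were followed across the myeloid cells of the mouse brain. The 8 members, *H2-Aa*, *H2-Ab1*, *H2-Eb1*, *Cd74*, *H2-DMa*, *H2-DMb1*, *Ciita* and *Cd86*, were chosen by symbol among the 32285 genes counted in 6 single-cell RNA-seq libraries, and all 8 were found. MHC class II molecules are pairs of an alpha and a beta chain that carry peptides of engulfed proteins to the surface, where helper T cells read them. The invariant chain, encoded by *Cd74*, keeps new pairs from binding too early, the H2-DM pair exchanges its last fragment for a peptide, and the transcriptional coactivator *Ciita* switches these genes on, while *Cd86* gives T cells the costimulatory signal. In the healthy brain, class II is known from macrophages of the borders (meninges, choroid plexus and perivascular space) and from dendritic cells, and resting microglia are known to carry little of it.

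The libraries came from 3 male C57BL/6J mice at postnatal day 89, whose whole brains, with the meninges taken off as far as possible, were dissociated by cold Dounce homogenization and sorted for CD45 and CD11b. Mouse 2 was prepared with a cocktail of transcriptional and translational inhibitors, actinomycin D, triptolide and anisomycin (DNC-INHIB), and mice 1 and 3 without it (DNC-NONE). Cells of each mouse were captured with 2 versions of the 10X Genomics 3' kit, V3.0 and V3.1, so that the 6 libraries are 3 pairs from the same animals. The study made them to ask whether the version of the kit changes what is measured.

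The V3.0 libraries of mice 1, 2 and 3 held 15109090, 17006892 and 6275898 unique molecular identifiers (UMIs, 1 for each captured RNA molecule) in 4592, 5637 and 4401 cell barcodes. For V3.1 the totals were 11175790, 14693129 and 18872816 UMIs, from 3689, 4963 and 6130 barcodes. The V3.0 library of mouse 3 stood apart, with a median of 809 UMIs per barcode against medians from 3031 to 3409 in the other libraries. The filter on cells asked for 1000 to 4000 genes, no more than 12000 UMIs and a mitochondrial part of 15% or less, which 21.5% of its barcodes met and 70.0% to 76.8% of the barcodes of the other libraries. This left 19725 of 29412 barcodes. Any pair of libraries shared between 1 and 14 barcodes (median 6 over 15 pairs), of which 1 to 5 passed in both.

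Cells were gated by how many different marker genes of a type had a UMI, with none of the 8 members among the markers. The gates held 18928 microglia, 59 macrophages of the brain borders (border macrophages), 175 monocytes and 274 neutrophils. The 59 border macrophages numbered 9, 23 and 3 in the V3.0 libraries of mice 1, 2 and 3 and 7, 12 and 5 in the V3.1 libraries. The 175 monocytes numbered 17, 68 and 8 with V3.0 and 20, 37 and 25 with V3.1. A further 120 cells with markers of 2 types, which can be doublets, 34 cells with markers of B, T, NK or dendritic cells, and 135 cells that met no gate were left out of the comparisons. The median depth was 3509 UMIs in microglia, 4269 in border macrophages, 5076 in monocytes and 5782 in neutrophils.

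The gates were made from these marker lists, so the levels of the markers describe the gates and do not test their labels. Each of the 8 microglial markers was highest in microglia, with a summed level of 14364 CPM (counts scaled to 1000000 UMIs in each sum) and 223934 UMIs of *P2ry12*. Each of the 8 border macrophage markers was highest in border macrophages (4807 CPM, 323 UMIs of *Ms4a7*), and all 13 neutrophil markers were highest in neutrophils (490588 CPM). Of the 8 monocyte markers, 7 were highest in monocytes, and *Chil3* was highest in neutrophils. Border macrophages also held the microglial list at 961 CPM, and of the monocyte list they held only *Ccr2* (61 UMIs) and *Ms4a4c* (20 UMIs). Their monocyte list stood at 52.4, 179 and 908 CPM in the V3.0 libraries of mice 1, 2 and 3. With V3.1 it stood at 402, 347 and 770 CPM. It was highest in mouse 3 with both kits, as was *H2-Aa*, given below.

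Dendritic cells are rich in class II, and their markers were counted in the same gates. In border macrophages, 4 of 7 dendritic markers had a UMI, at 35.5 CPM in sum, led by *Cd209a* with 6 UMIs, all in 1 cell, while *Xcr1*, *Ccr7* and *Cacnb3* were at 0. By library, the list stood at 183, 10.5 and 0 CPM in the V3.0 libraries of mice 1, 2 and 3 and at 0, 18.3 and 0 CPM in the V3.1 libraries. In monocytes, 3 of 7 had a UMI, at 19.1 CPM, again led by *Cd209a* (11 UMIs, also in 1 cell), with 8 UMIs of *Flt3* in 4% of cells, and *Xcr1*, *Clec9a*, *Ccr7* and *Cacnb3* were at 0. By library, the list stood in monocytes at 8.67, 43.9 and 18.8 CPM with V3.0 and at 6.91, 0 and 6.82 CPM with V3.1 in mice 1, 2 and 3. Of the B cell list, border macrophages and monocytes each held only *Cd79b*, and T or NK markers were at 0 in border macrophages. The part of such cells in the levels below was not tested.

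*H2-Aa* encodes the alpha chain and *H2-Ab1* the beta chain of the I-A molecule. In border macrophages, *H2-Aa* stood at 8314, 8173 and 13159 CPM in mice 1, 2 and 3 (9882 ± 2839, SD, n = 3 mice). In monocytes it stood at 388, 1008 and 275 CPM (557 ± 394, n = 3), and in microglia at 5.67, 6.23 and 6.34 CPM (6.08 ± 0.360, n = 3). Every border macrophage value lay above every monocyte value and every monocyte value above every microglial one, with the widest spread relative to the mean in monocytes, where mouse 2 was highest. Neutrophils held 3 UMIs of *H2-Aa* in 1681550, at 0, 3.50 and 2.16 CPM in the 3 mice, at the floor of 1.78 CPM that 3 counts set over the whole gate.

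*H2-Ab1* followed the same order. It stood at 6056, 5511 and 9042 CPM in border macrophages (6870 ± 1901, n = 3 mice), at 204, 641 and 240 CPM in monocytes (362 ± 243, n = 3) and at 12.2, 10.9 and 14.7 CPM in microglia (12.6 ± 1.93, n = 3). The 3 groups of mice did not overlap, and no library of one of these types overlapped a library of another. Between monocytes and microglia, the gap by library rests on few UMIs. The lowest monocyte value, 18.8 CPM (mouse 3, V3.0), came from 1 UMI and lay under its floor of 56.5 CPM. The next, 20.7 CPM (mouse 1, V3.1), came from 3 UMIs, while microglia reached 17.0 CPM. That gap is thus within counting error. Neutrophils held 3 UMIs of *H2-Ab1*, all in the V3.1 library of mouse 2.

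*H2-Eb1* encodes the beta chain of the I-E molecule, whose alpha chain gene *H2-Ea* is known to be defective in C57BL/6 mice and had no entry among the genes counted. *H2-Eb1* stood at 6971, 6825 and 10579 CPM in border macrophages (8125 ± 2126, n = 3 mice), at 181, 528 and 80.1 CPM in monocytes (263 ± 235, n = 3) and at 4.42, 5.05 and 4.56 CPM in microglia (4.68 ± 0.334, n = 3). Again the mice of the 3 types did not overlap. By library, monocytes ran from 0 to 716 CPM (median 166) and microglia from 0.942 to 9.91 CPM (median 5.17), so that these did overlap, as they did for *H2-Aa* (monocytes 0 to 1287 CPM, microglia 1.88 to 11.1 CPM). Neutrophils held 2 UMIs of *H2-Eb1*.

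The invariant chain gene *Cd74* stood at 20197, 21010 and 30278 CPM in border macrophages (23828 ± 5600, n = 3 mice) and at 1753, 3449 and 1066 CPM in monocytes (2089 ± 1226, n = 3). In microglia it stood at 35.7, 36.4 and 31.2 CPM (34.5 ± 2.82, n = 3). No mouse and no library of one type overlapped another, with monocytes between 414 and 4547 CPM by library and microglia between 26.2 and 53.6 CPM. Neutrophils held 3 UMIs of *Cd74* and lay below every library of microglia.

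**Figure D1:**
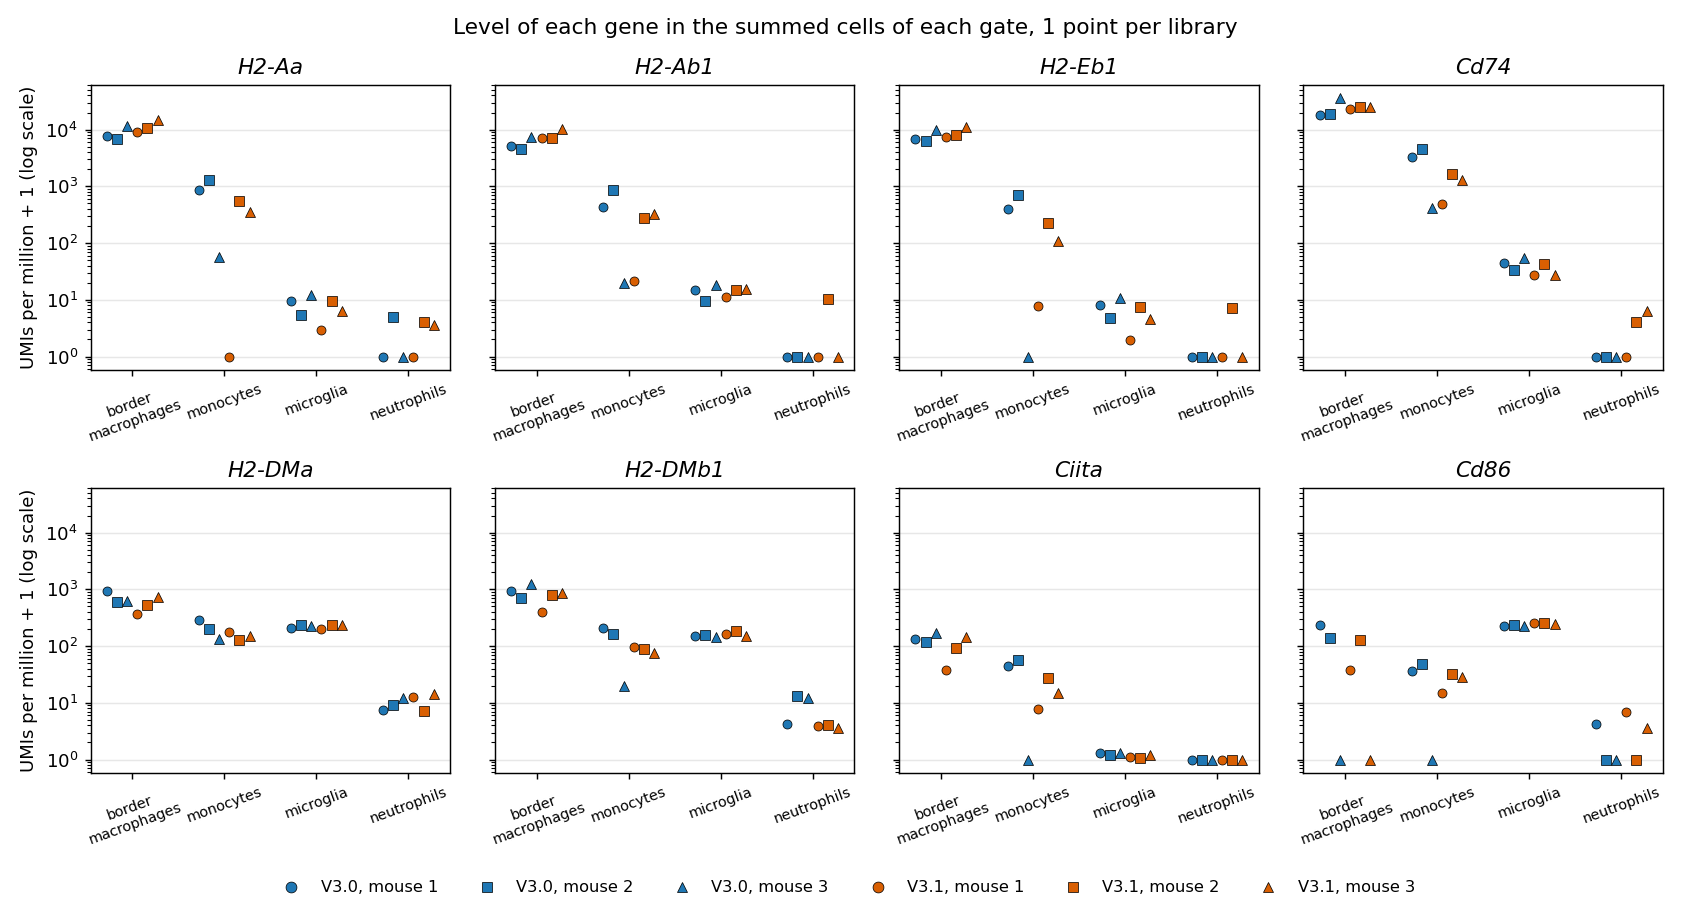
Level of each of the 8 genes in the summed cells of each gate, as CPM + 1 on a log axis, with 1 point per library, shaped by mouse and coloured by kit. The 6 border macrophage points of *H2-Aa* lie between 6735 and 14688 CPM and the 6 microglial points between 1.88 and 11.1 CPM, while those of *Cd86* lie highest in microglia, at 222 to 252 CPM, above 5 of 6 border macrophage points.

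The H2-DM chains, encoded by *H2-DMa* and *H2-DMb1*, edit the peptides that class II molecules hold. *H2-DMa* stood at 686, 580 and 677 CPM in border macrophages (648 ± 58.8, n = 3 mice), at 205, 235 and 233 CPM in microglia (224 ± 16.5, n = 3) and at 227, 171 and 145 CPM in monocytes (181 ± 41.7, n = 3). *H2-DMb1* stood at 717, 734 and 1042 CPM in border macrophages (831 ± 183, n = 3), at 155, 169 and 150 CPM in microglia (158 ± 9.79, n = 3) and at 146, 134 and 60.1 CPM in monocytes (113 ± 46.6, n = 3). For both genes border macrophages were highest in each mouse. Microglia had the next mean, but for *H2-DMa* monocytes lay above them in mouse 1. Microglia and monocytes overlapped between mice for *H2-DMa*, and between libraries for both genes. Neutrophils lay lowest, at 9.27, 7.01 and 12.9 CPM for *H2-DMa* and 3.09, 7.01 and 4.32 CPM for *H2-DMb1*.

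*Ciita*, the coactivator through which class II genes are switched on, had 176 UMIs in all barcodes of the 6 libraries. It stood at 91.5, 107 and 156 CPM in border macrophages (118 ± 33.9, n = 3 mice), at 23.1, 44.1 and 10.0 CPM in monocytes (25.7 ± 17.2, n = 3) and at 0.223, 0.152 and 0.203 CPM in microglia (0.193 ± 0.0366, n = 3). The mice of the 3 types did not overlap, while the libraries of border macrophages (36.6 to 170 CPM) and monocytes (0 to 54.9 CPM) did, as did those of monocytes and microglia (0.0824 to 0.311 CPM). The 18928 microglia held 13 UMIs of *Ciita* together. Neutrophils held 0 UMIs, which allows up to 1.78 CPM over the gate, above the microglial level.

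*Cd86*, a ligand for the T cell receptors CD28 and CTLA-4, had another order. It stood at 236, 241 and 239 CPM in microglia (239 ± 2.62, n = 3 mice) and at 153, 133 and 0 CPM in border macrophages (95.3 ± 83.1, n = 3), the last from 8 cells. In monocytes it stood at 23.1, 40.7 and 20.03 CPM (27.9 ± 11.2, n = 3). Microglia were highest in each mouse with little spread, and border macrophages overlapped monocytes. Neutrophils held 4 UMIs of *Cd86*, at 4.64, 0 and 2.16 CPM.

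The cell types were compared on UMIs summed per mouse and type (12 sums of 3 mice), with 7676 genes past the filter on low counts, among them all 8 members. Of these, *H2-Aa*, *H2-Ab1*, *H2-Eb1* and *Ciita* passed through border macrophages or monocytes and lay under the filter's level of 19.3 CPM in each mouse in microglia and neutrophils. They had to differ from microglia to be tested, so counts and medians over the members are descriptions. Without the filter these 4 were also called higher in border macrophages and in monocytes than in microglia. A gene was called when edgeR's quasi-likelihood test gave an adjusted p under 0.05 and the log2 fold change was past 0.58 in size. The standard errors given with edgeR differences were worked back from that test. Each is the size of the difference over the square root of the F statistic. In border macrophages against microglia, DESeq2's own were wider for *H2-Aa*, *H2-Ab1*, *H2-Eb1* (0.62 against 0.34) and *Cd74*, and narrower for the other members. The fit scaled the sums by TMM, which sets them level over most genes. Scaling by UMI totals in its place, as CPM does, moved the differences by a median over all genes of −0.30 on the log2 scale for border macrophages against microglia, −0.34 for monocytes against microglia and −1.51 for neutrophils against microglia. The comparisons share their microglia, border macrophages and monocytes, so they are not independent of each other.

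The class II chain genes and *Cd74* showed the widest gap between border macrophages and microglia of the 8 members, with *Ciita* beside them. Against microglia, border macrophages were higher by 10.89 on the log2 scale for *H2-Aa* (standard error 0.33, edgeR adjusted p = 2.62e-25), 9.31 for *H2-Ab1* (0.28, adjusted p = 2.91e-25), 10.98 for *H2-Eb1* (0.34, adjusted p = 3.24e-25) and 9.67 for *Cd74* (0.32, adjusted p = 4.19e-24). *Ciita* was higher by 9.32 (standard error 0.67, edgeR adjusted p = 2.17e-13), *H2-DMb1* by 2.60 (0.17, adjusted p = 3.68e-15) and *H2-DMa* by 1.77 (0.17, adjusted p = 7.40e-11). Of the 8 members 7 were called higher and 0 lower, where 16.4% of all genes tested were called (1257, 695 higher and 562 lower). The median over the 8 members was 9.32, and over all genes −0.14. Scaled by UMI totals, the same 7 were called higher, and over all genes 561 were higher and 1089 lower. *Cd86* stood at −0.73 and was not called (standard error 0.30, edgeR adjusted p = 0.1001). It was called lower by DESeq2 (−0.74, adjusted p = 0.0306), in a fit blocked by mouse (−0.77, adjusted p = 0.0426), with low counts kept in (−0.94), scaled by UMI totals (−1.03) and in the V3.1 libraries alone (−1.57), with adjusted p from 0.00780 to 0.503 over all alternatives. Without mouse 2, which holds 35 of the 59 cells, 779 genes were called in place of 1257, and the same 7 members among them.

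Monocytes differed from microglia in 5 members that were higher and 1 that was lower. *H2-Aa* was higher by 6.94 on the log2 scale (standard error 0.29, edgeR adjusted p = 6.58e-22), *H2-Ab1* by 5.30 (0.26, adjusted p = 7.10e-20), *H2-Eb1* by 6.33 (0.31, adjusted p = 1.02e-19), *Cd74* by 6.27 (0.28, adjusted p = 5.22e-21) and *Ciita* by 7.50 (0.59, adjusted p = 1.73e-13). *Cd86* fell by 2.57 (standard error 0.24, edgeR adjusted p = 8.67e-12). Without mouse 2 it stood at −3.20. *H2-DMa* (0.01, edgeR adjusted p = 0.965) and *H2-DMb1* (−0.06, adjusted p = 0.785) were not called. Without mouse 2, in which monocytes were highest, the differences were 6.05 for *H2-Aa*, 4.28 for *H2-Ab1*, 5.16 for *H2-Eb1*, 5.65 for *Cd74* and 6.44 for *Ciita*, all still called. The 6 members called of 8 stand beside 55.6% of all genes tested (4265, 2097 higher and 2168 lower, or 1539 and 3116 scaled by UMI totals). The median was 5.78 over the members and −0.09 over all genes. The sign of *H2-DMa* turned with the scale, to −0.33 by UMI totals and −0.11 by DESeq2, and *H2-DMb1* was called lower in the V3.1 libraries alone (−0.73, adjusted p = 0.00717, with adjusted p from 0.00717 to 0.988 over all alternatives).

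Border macrophages were higher than monocytes in 8 of 8 members, where 19.7% of all genes tested were called (1515, 669 higher and 846 lower, or 952 and 742 by DESeq2). The log2 difference was 4.64 for *H2-Eb1*, 4.01 for *H2-Ab1*, 3.95 for *H2-Aa*, 3.40 for *Cd74*, 2.65 for *H2-DMb1* and 1.76 for *H2-DMa*, with edgeR adjusted p of 5.22e-09 or less. It was 1.84 for *Cd86* (standard error 0.45, edgeR adjusted p = 0.00239) and 1.82 for *Ciita* (standard error 0.51, edgeR adjusted p = 0.00835). For *Cd86*, mouse 3 went the other way, with 0 UMIs in its 8 border macrophages against 20.03 CPM in its monocytes. The median over the 8 members was 3.03, and over all genes −0.08. The call of *Ciita* was lost with the stricter gate (1.54), without mouse 3 (1.44) and in the V3.0 libraries alone (1.58), with adjusted p from 0.00167 to 0.124 over all alternatives, and that of *Cd86* in the V3.1 libraries alone (1.53), with adjusted p from 1.90e-06 to 0.180. Without mouse 2 the differences were 5.88 for *H2-Eb1*, 4.96 for *H2-Ab1*, 4.86 for *H2-Aa*, 4.03 for *Cd74* and 2.64 for *Ciita*, and 919 genes were called in place of 1515.

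Neutrophils served as the type in which class II should be lacking. The H2-DM chains and *Cd86* were lower in neutrophils than in microglia, *H2-DMa* at −3.08 (standard error 0.28, edgeR adjusted p = 2.37e-12), *H2-DMb1* at −3.58 (0.37, adjusted p = 9.04e-11) and *Cd86* at −5.17 (0.42, adjusted p = 1.16e-13). *Cd74*, at 3 UMIs in neutrophils, was also called lower (edgeR adjusted p = 0.00857), a call that was lost without mouse 1 (−2.14, adjusted p = 0.0547, the highest of all alternatives, the lowest being 6.20e-06), while *Cd86* stood at −6.54 without mouse 1 and *Cd74* at −3.95 without mouse 3. Of the 8 members 4 were called lower and 0 higher, where 68.1% of all genes tested were called (5227, 2330 higher and 2897 lower, or 937 and 5647 scaled by UMI totals). The median over the 8 members was −2.94, or −2.06 with *Ciita* at the bound that 0 counts allow, and over all genes −0.26. At 2 or 3 UMIs in neutrophils the other members are better given as ratios of CPM with exact 95% counting intervals. Microglia held 3.41 times the neutrophil level of *H2-Aa* (1.16 to 16.6), 6.97 times that of *H2-Ab1* (2.38 to 33.9), 3.96 times that of *H2-Eb1* (1.09 to 32.8) and 19.4 times that of *Cd74* (6.65 to 94.4). These ratios are on the scale of UMI totals and cover counting error only, and on the TMM scale the fitted differences were −0.29 for *H2-Aa*, −1.34 for *H2-Ab1* and −0.50 for *H2-Eb1* on the log2 scale. Without 9 microglia that held 10 or more UMIs of the chain genes, described below, the ratios were 1.40 for *H2-Aa* (0.471 to 6.86), 5.35 for *H2-Ab1* (1.82 to 26.01), 1.39 for *H2-Eb1* (0.376 to 11.6) and 15.2 for *Cd74* (5.21 to 74.01). Removing cells for their chain gene counts lowers the ratios of these genes by construction. The ratios without the 9 cells are thus a description with no test. None of *H2-Aa*, *H2-Ab1*, *H2-Eb1* and *Ciita* was called. Without mouse 2, *H2-Ab1* had 0 UMIs in neutrophils and was called (adjusted p = 0.00355), as it was scaled by UMI totals (adjusted p = 0.00745), with adjusted p up to 0.597 over all alternatives.

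Free RNA in the droplets gives UMIs in cells that do not make a gene, and it was gauged by genes of other cells. The neuronal gene *Snap25* had 40 UMIs in microglia and 0 in the other 3 gates. The haemoglobin gene *Hbb-bs* had 87 UMIs in microglia, 79 of them in the V3.1 library of mouse 2, and 2 in neutrophils, both in that library. Markers of neutrophils were found in the other types at higher levels. The neutrophil list stood at 1116 CPM in microglia, where *S100a9* stood at 415 CPM with a UMI in 71.4% of cells, and at 717 CPM in border macrophages and 762 CPM in monocytes. *Csf3r* stood apart from the rest of the list, at 177 CPM in microglia against 225 CPM in neutrophils. Every other marker was far lower in microglia than in neutrophils. *S100a9* stood at 415 against 205410 CPM, *Camp* at 48.9 against 26268 CPM and *Lcn2* at 16.3 against 10679 CPM. *Mmp8* stood at 2.72 against 3223 CPM and *Cxcr2* at 2.13 against 529 CPM. How much of these UMIs is free RNA was not tested. The V3.1 library of mouse 2 is also the one that held all neutrophil UMIs of *H2-Ab1* and *H2-Eb1*. The part of free RNA in the low levels of class II in microglia and neutrophils was not tested.

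Class II UMIs were also counted in single cells of each type. Of the 59 border macrophages, 50 held a UMI of *H2-Aa*, *H2-Ab1* or *H2-Eb1* (84.7%, exact 95% interval 73.0 to 92.8), with a median of 106 and a highest value of 286 UMIs per cell. Of the 175 monocytes, 38 held one (21.7%, 15.8 to 28.6), and 21 cells with 10 or more held 96.9% of the 1603 UMIs. Of the monocytes, 137 held no such UMI, 8 held 1, 21 held 10 or more and the rest lay between. The V3.0 library of mouse 2 held 12 of the 21 high cells, with 0 in either the V3.1 library of mouse 1 or mouse 3's V3.0 library.

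Of the 18928 microglia, 822 held a class II UMI (4.34%, exact 95% interval 4.06 to 4.64), and 734 of these held a single one. In neutrophils the share was 7 of 274 cells (2.55%, 1.03 to 5.19) at a median of 5782 UMIs per cell, against 3509 in microglia. The V3.1 library of mouse 2 held 5 of these 7 neutrophils (5 of 53 cells, 9.43%). By library the share of microglia ran from 3.37% to 5.05%. The intervals pool cells over libraries and do not cover the spread between libraries. Just 9 microglia held 10 or more class II UMIs, and these 9 held 652 of the 1589 UMIs of the gate (41.0%). They came from 5 of the 6 libraries, had a median of 5379 UMIs, and all held *Cd74*. They held a mean of 6.44 different microglial markers, 1.44 border macrophage markers and 0.667 monocyte markers, against 7.42, 0.564 and 0.0552 in microglia without a class II UMI. No doublet caller was run, and whether these are single cells was not tested.

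Without the 9 cells, the microglial level was 2.4998 CPM for *H2-Aa*, 9.55 CPM for *H2-Ab1*, 1.65 CPM for *H2-Eb1* and 27.2 CPM for *Cd74*. *H2-Aa* then stood at 2.41, 1.84 and 2.79 CPM in the V3.0 libraries of mice 1, 2 and 3 and at 1.88, 3.38 and 2.79 CPM in the V3.1 libraries, where it had run from 1.88 to 11.1 CPM with them. The V3.1 library of mouse 1, which held none of the 9, was the lowest with them and was no longer so without them. The cells were set apart by their class II counts, so these levels are a description with no test.

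Most border macrophages and monocytes with *H2-Aa* also held the other chain genes, while most microglia with it did not. Of the 3 neutrophils with *H2-Aa*, 0 held *H2-Ab1*, *H2-Eb1* or *Cd74*. Of the 50 border macrophages with *H2-Aa*, 47 held *H2-Ab1*, 46 held *H2-Eb1* and 50 held *Cd74*. Of the 31 monocytes with *H2-Aa*, 28 held *H2-Ab1* and 23 held *H2-Eb1*, against 6 and 2 of the 144 without it. Of the 167 microglia with *H2-Aa*, 18.6% held *H2-Ab1* and 24.6% held *Cd74*, against 3.04% and 6.38% of the microglia without it. Cells share library and depth in these counts.

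Of the UMIs that *H2-Aa*, *H2-Ab1*, *H2-Eb1* and *Cd74* held together, *H2-Ab1* took 21.5% in microglia, 13.8% in border macrophages and 11.1% in monocytes. *H2-Aa* took 10.5%, 20.02% and 17.4%, and *H2-Eb1* took 8.12%, 16.6% and 8.69% in the same order. In border macrophages the share of *H2-Ab1* ran from 11.5% to 16.9% over the 6 libraries, and in microglia from 17.4% to 28.5%, with no overlap. Without the 9 microglia of high class II, *H2-Aa* took 6.11%, *H2-Eb1* 4.04% and *H2-Ab1* 23.3% of these UMIs in microglia, the last from 18.9% to 27.7% over the libraries. The share of *H2-Ab1* was thus higher in microglia than in border macrophages with or without these cells, which was not tested across mice.

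Shares of cells depend on depth, so each cell was also thinned to 2000 UMIs, which left out 751 microglia, 3 monocytes and no border macrophage or neutrophil. After thinning, *H2-DMa* was found in 57.6% of border macrophages, 34.2% of microglia, 24.4% of monocytes and 1.46% of neutrophils, and unthinned in 78.0%, 50.4%, 46.9% and 5.11%. *Cd86* was found in 37.1% of microglia, 16.9% of border macrophages, 9.30% of monocytes and 0.730% of neutrophils, and unthinned in 54.8%, 25.4%, 16.6% and 1.46%. *Cd74* was found in 88.1% of border macrophages, 47.7% of monocytes, 4.20% of microglia and 0.365% of neutrophils, and unthinned in 88.1%, 64.0%, 6.54% and 1.09%. The order of the types by share was that of the CPM for these 3 genes at both depths. It was not for *H2-Aa* and *H2-Eb1* unthinned, with 1.09% and 0.730% of neutrophils (3 and 2 cells) against 0.882% and 0.571% of microglia. After thinning, each was found in 0.365% of neutrophils, against 0.440% and 0.391% of microglia.

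*Lyve1*, a hyaluronan receptor, is known to mark border macrophages that carry little class II. It had a UMI in 4 of the 59 border macrophages, 1, 2 and 1 in mice 1, 2 and 3. These 4 held 0 UMIs of *H2-Aa*, *H2-Ab1*, *H2-Eb1* and *Cd74*, at median depths of 5606, 3650 and 2718 UMIs in the 3 mice. The border macrophages without *Lyve1* held 45423, 43644 and 67863 CPM of the 4 genes together, at median depths of 3508, 4321 and 4297 UMIs. Against the floor of 3 counts per mouse, cells with *Lyve1* were at least 84.9-, 106- and 61.5-fold lower. These bounds cover counting error and not the spread between cells. They rest on 1, 2 and 1 cells, and 9 of the 59 border macrophages held no UMI of the 3 chain genes, 4 of them those with *Lyve1*. The direction was the same in 3 of 3 mice, and the two-sided exact sign-flip test on the mean of the bounds (−6.36 on the log2 scale) gave p = 0.25, the smallest that 3 mice allow.

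**Figure D2:**
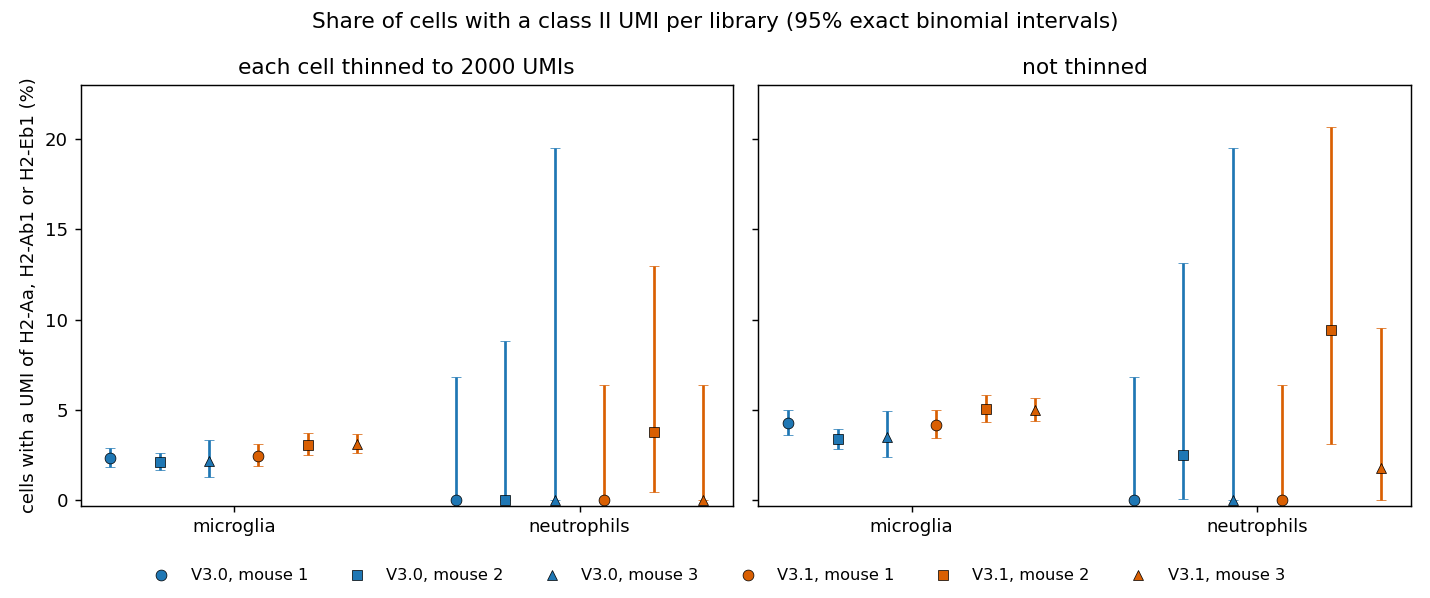
Share of microglia and of neutrophils with a UMI of *H2-Aa*, *H2-Ab1* or *H2-Eb1*, in percent of cells, with each cell thinned to 2000 UMIs (left) and not thinned (right). Points are libraries, shaped by mouse and coloured by kit, and bars are exact 95% binomial intervals; thinned microglia lie between 2.11% and 3.13%, and 5 of 6 neutrophil libraries lie at 0.

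The kits were compared first by the share of microglia with a class II UMI. At 2000 UMIs per cell it was 2.33%, 2.11% and 2.16% in the V3.0 libraries of mice 1, 2 and 3 and 2.43%, 3.05% and 3.13% in the V3.1 libraries. Each V3.1 library lay above each V3.0 library, at 2.87% ± 0.382 against 2.20% ± 0.115 (SD, n = 3 libraries each). The closest were those of mouse 1, with 64 of 2631 cells for V3.1 and 77 of 3310 for V3.0. These shares come from a single random thinning, and how they vary between draws was not tested. The difference of 0.676 percentage points had p = 0.10 in a two-sided exact permutation test, the smallest that 3 against 3 allows, and p = 0.25 with the mouse as a block, the smallest that 3 pairs allow. Unthinned, the shares were 4.75% and 3.73% (p = 0.20, exact permutation test), at median depths of 3480 and 3543 UMIs, and the kits overlapped, mouse 1 having 4.28% with V3.0 and 4.20% with V3.1. They also overlapped with the stricter gate, where mouse 1 had 2.48% and 2.21%, and at 500 genes per cell. In neutrophils thinned to 2000 UMIs, 2 of 165 cells held one with V3.1 and 0 of 109 with V3.0, where 3 counts would be 2.75% of cells with a UMI. Unthinned, 6 of the 165 and 1 of the 109 did, at median depths of 5934 and 5476 UMIs. The thinned difference was 0.656 without the V3.0 library of mouse 3.

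In the microglial sums per library, 12016 genes were tested for V3.1 against V3.0, among them 7 members and not *Ciita*. With edgeR 0 of these 7 were called, where 3.05% of all genes were (366), and 0 of 7 with DESeq2 (302 of all genes). At an unadjusted p under 0.05 edgeR gave 2 of the 7 members and 3528 of all genes. These were *Cd86* and *H2-DMb1*. *Cd86* stood at 224, 233 and 222 CPM in the V3.0 libraries of mice 1, 2 and 3 and at 252, 251 and 242 CPM in the V3.1 libraries (226 ± 5.95 against 248 ± 5.30, n = 3 libraries each). *H2-DMb1* stood at 148, 155 and 142 CPM with V3.0 and at 164, 185 and 152 CPM with V3.1. Both were higher with V3.1 in 3 of 3 mice, and the kits overlapped for *H2-DMb1* and not for *Cd86*. The log2 differences were 0.15 for *Cd86* (standard error 0.06, edgeR adjusted p = 0.139) and 0.18 for *H2-DMb1* (0.08, adjusted p = 0.163), and neither was called. Blocked by mouse, the edgeR fit gave an adjusted p of 0.0302 for *Cd86* and 0.0112 for *H2-DMb1*, the lowest of all alternatives, the highest being 0.421 and 0.508, and both differences stayed under 0.58.

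The class II chains went no one way between the kits. *H2-Aa* stood at 8.48, 4.30 and 11.1 CPM in the V3.0 libraries of mice 1, 2 and 3 and at 1.88, 8.49 and 5.39 CPM in the V3.1 libraries, lower with V3.1 in mice 1 and 3 and higher in mouse 2. *H2-Ab1*, *H2-Eb1* and *Cd74* moved the same way as *H2-Aa* in each mouse. The fitted log2 differences were −0.40 for *H2-Aa*, −0.68 for *H2-Eb1*, −0.36 for *Cd74* and 0.04 for *H2-DMa*. That of *H2-Ab1* was 0.10, although its mean was lower with V3.1 (12.7 against 13.1 CPM), and it was not called. Without mouse 2, *Cd74* was called lower (−0.80, edgeR adjusted p = 0.0219, with adjusted p from 0.00415 to 0.909 over all alternatives), and without the filter on low counts *H2-Eb1* was (−0.69). With a mouse left out, *H2-Eb1* ran from −1.67 to −0.13 and was not called. The 9 microglia of high class II held 54.3% and 65.9% of the UMIs of the 3 chain genes in the V3.0 libraries of mice 1 and 3, against 0% and 32.5% in the V3.1 libraries. Without these cells *Cd74* stood at 29.7 and 24.5 CPM with V3.0 and at 26.2 and 24.4 CPM with V3.1 in mice 1 and 3. *Ciita*, at 13 UMIs, was lower with V3.1 in 3 of 3 mice (0.123 ± 0.0522 against 0.277 ± 0.0570 CPM, n = 3 libraries each). It did not pass the filter on low counts, and without that filter it stood at −0.97 (edgeR adjusted p = 0.607) and was not called. Over all genes, 551 were called with the mouse as a block, and 179 without mouse 1 and 121 without mouse 2, in place of 366, and with the block 0 of the 7 members were called and 3 had an unadjusted p under 0.05.

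In border macrophages the kits were compared on 3 to 23 cells per library, which left 402 genes tested, among them 6 members and not *Ciita* or *Cd86*. *H2-Aa* stood at 7801, 6735 and 11356 CPM in the V3.0 libraries of mice 1, 2 and 3 and at 9029, 10674 and 14688 CPM in the V3.1 libraries. *H2-Aa*, *H2-Ab1* and *H2-Eb1* were higher with V3.1 in 3 of 3 mice, while the kits overlapped for each of them. The log2 differences were 0.36 for *H2-Aa*, 0.47 for *H2-Ab1*, 0.18 for *H2-Eb1*, −0.50 for *H2-DMa*, −0.47 for *H2-DMb1* and −0.03 for *Cd74*. With edgeR 0 of the 6 were called and 0 had an unadjusted p under 0.05, where 0.498% of all genes were called (2) and 19 had such a p, and DESeq2 also called 0 of the 6 and had 0 under 0.05. Without the V3.0 library of mouse 3, 4 genes were called, and 0 to 1 when one mouse was left out, none of them a member. With the mouse as a block 1 of the 6 members had an unadjusted p under 0.05, and without the V3.0 library of mouse 3, 2 had. All 6 differences were smaller than the 0.58 that a call asks for.

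The inhibitors were compared on microglial UMIs summed per mouse, as mouse 2 against mice 1 and 3, so that an effect of DNC-INHIB cannot be told apart from that animal. With 1 sum on that side, the test takes its spread from mice 1 and 3 and assumes that mouse 2 varies as they do. With edgeR 0 of 7 members were called, where 0.835% of all genes were (110 of 13170), and 0 of 7 with DESeq2, which called 15 genes. At an unadjusted p under 0.05 each tool gave 0 of the 7 members, and edgeR 1005 of all genes. The log2 differences ran from −0.29 (*H2-Ab1*) to 0.19 (*H2-Eb1*), with *H2-Aa* at 0.07, *Cd74* at 0.14 and *Cd86* at 0.04. For *H2-Aa*, *H2-Ab1*, *H2-Eb1* and *Cd74* the direction was opposite in the 2 kits. In the V3.1 libraries alone 3 of these were called higher with the inhibitors, *H2-Aa* by 1.13 (edgeR adjusted p = 0.0325), *H2-Eb1* by 1.44 (adjusted p = 0.0148) and *Cd74* by 0.66 (adjusted p = 0.00620), with adjusted p up to 1.00 over all alternatives. With 1 library on the side of the inhibitors, these calls compare libraries and hold no spread between treated mice. *H2-Ab1* stood at 0.16 there and was not called. In the V3.0 libraries alone *H2-Aa*, *H2-Eb1*, *Cd74* and *H2-Ab1* stood at −1.08, −1.04, −0.51 and −0.77 and were not called. Of the 350 UMIs of the 3 chain genes in the V3.1 library of mouse 2, 162 were in 2 cells of high class II, and that of mouse 1 had 0 such cells. Without such cells *H2-Aa* stood at 3.38 CPM in the V3.1 library of mouse 2 against 1.88 and 2.79 CPM in those of mice 1 and 3, and *Cd74* at 29.8 against 26.2 and 24.4 CPM. The number of all genes called was 66 with V3.1 alone, 3 with V3.0 alone and 72 without the V3.0 library of mouse 3.

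The gated cells held a minor part of the class II RNA of the libraries. Of the 25327 UMIs of *H2-Aa*, *H2-Ab1* and *H2-Eb1* in all barcodes, border macrophages held 22.6%, monocytes 6.33%, microglia 6.27% and neutrophils 0.0316%. Microglia made up 64.4% of the barcodes, and border macrophages 0.201%. The largest part, 31.5%, was in the 135 cells that met no gate, and 23.6% was in the barcodes that did not pass the filter on cells. Cells with markers of 2 types held 8.09%, and cells with markers of other lineages 1.51%.

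Among the cells that met no gate, 53 held 10 or more class II UMIs, and these held 7967 of the 7985. Of these 53, 45 had a UMI of at least 1 border macrophage marker and 29 of at least 2. These counts were 39 and 12 for monocyte markers, 45 and 27 for microglial markers and 46 and 33 for neutrophil markers. A dendritic marker was found in 6, a B cell marker in 4 and a T or NK marker in 0. They were given no name, and they stand outside the comparisons above.

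The other members were placed differently. Of the UMIs of *H2-DMa*, 82.0% were in microglia, as were 81.3% of those of *H2-DMb1* and 85.1% of those of *Cd86*. *Cd74* was placed like the class II chains, with 29.9% in cells that met no gate, 25.1% in barcodes that did not pass, 19.1% in border macrophages, 9.13% in monocytes and 8.03% in microglia. Of the 176 UMIs of *Ciita*, 24.4% were in barcodes that did not pass, 19.3% were in monocytes, 15.9% in border macrophages and 23.9% in cells that met no gate.

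**Figure D3:**
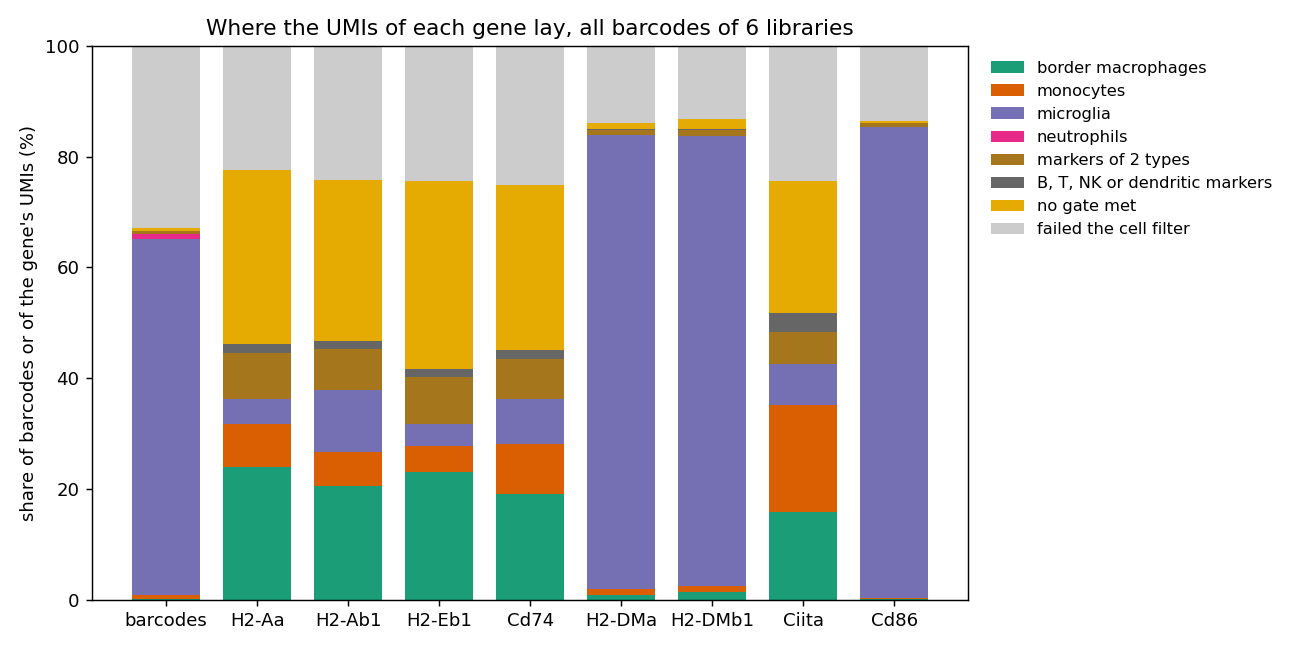
Share of all UMIs of each of the 8 genes, in percent, that lay in each kind of barcode over the 6 libraries. *H2-DMa*, *H2-DMb1* and *Cd86* lay in microglia for 82.0%, 81.3% and 85.1%, while for *H2-Aa* the largest part, 31.5%, lay in cells that met no gate.

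Over the 12 sums of mouse and cell type, the genes whose level was most like that of *H2-Aa* were other members. The Pearson correlation of log2(CPM + 1) was 0.993 for *H2-Eb1*, 0.988 for *Ciita*, 0.987 for *H2-Ab1* and 0.984 for *Cd74*, which took the first 4 places of 19066 genes. The next was *Rap2b*, which encodes a small GTPase (0.982), with means of 27.5 CPM in microglia, 180 CPM in border macrophages, 82.1 CPM in monocytes and 23.4 CPM in neutrophils. *H2-DMb1* came at place 219 (0.802), *H2-DMa* at 279 (0.766) and *Cd86* at 5540 (0.0829). The 12 sums share 3 mice and 4 cell types, so these values describe the sums and carry no p.

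The wider pathway was taken as a list of 31 genes besides the members, of which 24 were tested between cell types. In border macrophages against microglia, 3 were called higher and 6 lower, where 16.4% of all genes were called, with a median of −0.25 against −0.14 over all genes. Among the higher ones were *Irf1* (1.40), a transcription factor of the interferon gamma response, and *Cd83* (1.20), which slows the loss of class II from the surface. Scaled by UMI totals, neither of these was called higher and 7 genes of the list were lower, among them *Irf8* (−0.83). *Ctsl* (−2.22) and *Lgmn* (−1.26), proteases that act on the invariant chain or on antigen, and *March1* (−1.15), a ubiquitin ligase that takes class II from the surface, were lower on both scales, as were the adhesion molecule *Icam1* (−1.46), the receptor chain *Ifngr1* (−0.67) and *H2-Oa*.

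*H2-Oa* and *H2-Ob* encode the H2-O pair, which restrains H2-DM. *H2-Oa* had 3172 UMIs in microglia and 0 in border macrophages, at least 3.92-fold lower against a floor of 3 counts over the gate. *H2-Ob* had 1978 UMIs in microglia, 5 in border macrophages, 6 in monocytes and 0 in neutrophils, the last at least 16.2-fold lower. In monocytes *H2-Oa* had 2 UMIs, and microglia held 24.3 times that level (exact 95% counting interval 6.72 to 201). Both genes had their highest CPM in microglia, although the 5 UMIs of *H2-Ob* in border macrophages leave that gap uncertain.

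In monocytes against microglia, 5 of the 24 genes of the list were called higher and 12 lower (5 and 14 scaled by UMI totals), where 55.6% of all genes were called, with a median of −0.61 against −0.09 over all genes. Among them, *Cd274*, the inhibitory ligand PD-L1, was higher by 2.53, *Ifi30*, a thiol reductase of antigen processing, by 1.70, *Irf1* by 1.63 and *Jak2* by 0.98. The 6 largest falls were those of *Ctsl* (−4.25), *Lgmn* (−4.22), *Icosl* (−2.06), *H2-Ob* (−2.02), *Irf8* (−1.39) and *H2-Oa*. In border macrophages against monocytes, where 19.7% of all genes were called, 6 were higher, *Lgmn* (2.95), *Cd83* (2.45), *Icosl* (2.29), *Ctsl* (2.03), *Ctss* (1.14) and *Irf8* (0.86), and 2 were lower, among them *Ifi30* (−1.71). The median was −0.01, or 0.29 with *H2-Oa* at its bound and 0.38 by DESeq2, which called 6 higher and 1 lower.

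In neutrophils against microglia the directions hung on the scale. With TMM 5 of the 24 genes of the list were called higher and 11 lower, a share near the 68.1% called over all genes, with a median of −0.42 against −0.26, and scaled by UMI totals 0 were higher and 19 lower. *Nfyb* went from 1.81 to 0.30 and was then not called, and *Jak1* (1.34 to −0.16), *Jak2* (1.08 to −0.42) and *Irf1* (1.29 to −0.22) turned sign. *Lgmn* (−6.77), *Irf8* (−5.34) and *Ctss* (−5.24) were lower on both scales, as were *H2-Ob*, *Cd83* and *Icam1*. With 1 UMI of *Cd83* and 2 of *Icam1* in neutrophils, microglia held 114 times (exact 95% counting interval 20.5 to 4507) and 88.99 times (24.6 to 735) their level. *Ifng*, the gene for interferon gamma itself, had 2 UMIs in the 4 gates, both in microglia. Between the kits edgeR called 0 of the 27 genes of the list tested in microglia, of which 8 had an unadjusted p under 0.05 (0 and 7 with DESeq2), and 0 of the 4 tested in border macrophages, of which 0 had such a p with either tool. With the inhibitors it called 0 of 28, of which 2 had such a p (0 and 0 with DESeq2).

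By position (GRCm38, GENCODE annotation), 5 members lie in the class II region of chromosome 17. *H2-DMa* (ENSMUSG00000037649) lies at 34119541 to 34139101 on the plus strand, *H2-DMb1* (ENSMUSG00000079547) at 34153072 to 34160230 on the plus strand and *H2-Ab1* (ENSMUSG00000073421) at 34257689 to 34269419 on the plus strand. *H2-Aa* (ENSMUSG00000036594) lies at 34282744 to 34287823 on the minus strand and *H2-Eb1* (ENSMUSG00000060586) at 34305867 to 34316674 on the plus strand. *Ciita* (ENSMUSG00000022504) and *Cd86* (ENSMUSG00000022901) lie on chromosome 16, at 10480059 to 10528418 (plus strand) and 36603869 to 36666081 (minus strand), and *Cd74* (ENSMUSG00000024610) lies on chromosome 18, at 60803848 to 60812652 (plus strand).

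Some members share their position with other annotated genes. *Ciita* overlaps *Dexi*, *H2-Eb1* overlaps *Gm20513*, and *H2-DMa* overlaps *Brd2*, *CR974462.4* and *Gm20493*, all on the other strand. *H2-DMa* also overlaps *CR974462.3*, and *Cd74* overlaps *Mir5107*, on the same strand. Whether counting used the strand is not given in the sources used here, so UMIs of these members may include some of their partners.

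Class II promoters are known to hold an X box, bound by the RFX complex, and a Y box, bound by NF-Y, on which *Ciita* acts. The members with a promoter sequence at hand were searched for 2 short motifs, ACNGATG for X and ATTGG for Y, on both strands, from 250 bases before to 50 after each start that RefSeq gives, which can differ from the GENCODE start given above, as for *H2-DMa* and *H2-DMb1*. Of 32851 such windows, 9.85% held the X motif, 37.4% the Y motif and 0.195% (64) both on the same strand with 10 to 35 bases between. Of the 8 members, 4 had a window, and 2 of these held the pair, *H2-Eb1* and *H2-DMb1*, the latter within an annotated UTR. *H2-Aa* held both motifs but no such pair, and *H2-DMa* held no pair in either of its 2 windows. Of 4 other class II loci, 2 held the pair, *H2-Eb2* and *H2-DMb2*.

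The segments of *H2-Eb1* and *H2-Eb2* are shown because these neighbours hold the pair at the same spacing, 22 bases, while their levels differ, *H2-Eb2* having 0 UMIs in all 4 gates. The *H2-Eb1* segment, chr17:34305769-34305822 (GRCm38.p6, plus strand, RefSeq), lies before the gene's first exon, in an intron of the antisense gene *Gm20513*, and its X motif starts 88 bases before the start. The *H2-Eb2* segment, chr17:34325536-34325589 (plus strand), lies in no annotated gene and has its X motif 129 bases before the start. Capitals mark the motifs, and a match is a description of the sequence, not evidence of binding.
H2-Eb1: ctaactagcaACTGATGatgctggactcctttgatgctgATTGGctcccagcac
H2-Eb2: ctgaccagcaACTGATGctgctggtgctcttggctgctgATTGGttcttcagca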

How the data were processed

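Counts of UMIs per gene and cell barcode, deposited by the authors as 6 filtered matrices, were used as they stand; the submitters' notes name Cell Ranger 5.0.0 and mm10. The filter on cells asked for 1000 to 4000 genes, no more than 12000 UMIs and a mitochondrial part of 15% or less. Gates needed UMIs of at least 5 microglial, 3 border macrophage, 3 monocyte or 7 neutrophil markers, and at most 4 microglial markers in the last 3 types. Cells with markers of 2 types were left out as possible doublets, and no doublet caller was run. The members and lists were chosen with earlier results of these data known, and a listing of genes in cells that met no gate was seen before the gate limits were set, although these were taken from marker counts alone.

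UMIs were summed per mouse or library and type and tested with edgeR 4.0.16 (quasi-likelihood, TMM, filter on low counts, Benjamini-Hochberg adjustment over all genes tested) in R 4.3.3, with DESeq2 1.42.0 as an alternative. Scripts in Python 3.11.15 with scipy 1.17.1 did the rest, and the fits were tested on simulated data. Intervals are exact 95% binomial or Poisson ones and, like floors of 3 counts, cover counting error only. Named genes are the members, the pathway genes called, up to 6 in each direction by size, the 5 most like *H2-Aa*, gauges of free RNA and gate markers; genes at a neighbouring position were named besides. Some results of the pathway list are not reported here.

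Libraries with the same number come from the same mouse, so they pair by design. Deviations from group means of the same mouse correlated at 0.276, 0.377 and 0.121 between kits in microglia, at −0.064, 0.224 and −0.006 between kits in border macrophages and at −0.024 to 0.069 between cell types.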

Additional observations from a re-analysis of the deposited data

Results flagged for a closer look

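Of 35 sets of 6 libraries, 4 held a library far from the other 5, where chance alone sets apart about 1 in 20. The V3.0 library of mouse 3 had 21.5% of barcodes passing. The V3.1 library of mouse 2 had the highest neutrophil levels of *H2-Ab1* (9.34 CPM, 3 UMIs) and *H2-Eb1* (6.22 CPM, 2 UMIs) and the highest share of neutrophils with a class II UMI after thinning (3.77%). These last 3 sets were at 0 in the other 5 libraries, so that 2 or 3 UMIs set a library apart and the rate of 1 in 20 does not apply to them.

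Barcodes outside the comparisons also held class II UMIs. Of all UMIs of *H2-Aa*, *H2-Ab1* and *H2-Eb1*, cells that met no gate held 31.5%, barcodes that did not pass the filter 23.6%, cells with markers of 2 types 8.09% and cells of other lineages 1.51%.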

How the results depend on the processing

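For the members between cell types, 352 of 380 values over 32 results kept their direction and their side of the threshold, 5 lost a call, 8 gained one and 15 changed sign. Between kits or with the inhibitors 162 of 186 values over 20 results did, 5 gained a call and 19 changed sign. The kit difference in the mean share of microglia (0.527 to 1.02 points) kept its direction in 9 of 9 alternatives, which reuse the same libraries. Within mouse 1 it turned unthinned (4.28% with V3.0, 4.20% with V3.1) and with the stricter gate (2.48% and 2.21%). The *Lyve1* difference ran from −6.57 to −6.00, but it is a bound over 1 to 3 mice and says nothing of stability. The stricter gate, the scale of UMI totals and the inhibitor comparison without the V3.0 library of mouse 3 were chosen after seeing the data. So was the mouse as a block in the test of the share of microglia. A gate with no marker of any other type would have left 0 border macrophages. The inhibitor comparison could not be fitted with a mouse left out. The 59 border macrophages and the few neutrophil UMIs limit the precision of the comparisons that use them. The causes of the changes were not tested.

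Counts of genes called were as follows. Border macrophages against microglia gave 827 with the stricter gate, 829 with V3.0 alone, 778 with V3.1 alone and 779 to 1040 with one mouse left out. With V3.0 alone, monocytes against microglia gave 2580 and neutrophils against microglia 2855. Border macrophages against monocytes gave 948 with V3.0 alone, 794 with V3.1 alone and 919 to 1234 with one mouse left out. The kits gave 551 in microglia with the mouse as a block and 121 to 412 with one mouse left out. In border macrophages they gave 1 without the filter on low counts, 1 with at least 500 genes per cell, 4 without the V3.0 library of mouse 3 and 0 to 1 with one mouse left out. The inhibitors gave 15 by DESeq2, 19 with the stricter gate, 3 with V3.0 alone, 66 with V3.1 alone and 72 without the V3.0 library of mouse 3.

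Log2 differences that changed sign were, in monocytes against microglia, *H2-DMa* (−0.11 by DESeq2, −0.11 without the filter, −0.37 with V3.1 alone, −0.33 by UMI totals, −0.22 to 0.15 with one mouse left out) and *H2-DMb1* (0.0393 at 500 genes, 0.27 with V3.0 alone, 0.0031 without the V3.0 library of mouse 3, −0.25 to 0.11 with one mouse left out). In neutrophils against microglia they were *H2-Aa* (1.13 stricter gate, −1.38 to 0.28 with one mouse left out), *H2-Eb1* (1.25 stricter gate, 0.39 with V3.1 alone, −7.60 to 0.0799 with one mouse left out) and *Ciita* (2.19 by DESeq2). Between kits in microglia they were *H2-Aa* (0.44 stricter gate, −1.23 to 0.16 with one mouse left out), *H2-Ab1* (−0.23 to 0.38 with one mouse left out), *H2-Eb1* (0.0872 stricter gate), *H2-DMa* (−0.019 at 500 genes) and *Cd74* (0.0314 stricter gate). In border macrophages they were *H2-Aa* (−0.10 stricter gate), *H2-Eb1* (−0.0332 at 500 genes, −0.40 stricter gate) and *Cd74* (0.0564 without the filter, 0.0285 with the mouse as a block, 0.36 without the V3.0 library of mouse 3, −0.19 to 0.31 with one mouse left out). With the inhibitors they were *H2-Aa* (−0.0936 stricter gate, −1.08 with V3.0 alone), *H2-Ab1* (0.16 with V3.1 alone), *H2-Eb1* (−1.04 with V3.0 alone) and *Cd74* (−0.20 stricter gate, −0.51 with V3.0 alone). The mouse as a block changed no call of a member other than that of *Cd86* in border macrophages against microglia (−0.77).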
